A study of Mus musculus with 6 samples.

Results

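Shank3 encodes a scaffold protein of the postsynaptic density, where it links glutamate receptor complexes to the actin cytoskeleton, and loss of a copy of the human gene is a known cause of neurodevelopmental disorder. The gene is known for several internal promoters that give shorter isoforms, and for CpG islands inside the gene whose methylation differs between tissues. CpG methylation is usually low at CpG-dense promoters that are open for transcription and high in CpG-poor gene bodies.

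The locus was studied in neocortex at postnatal day 5 from 3 Chd8+/- and 3 wild-type (WT) mouse samples, assayed by reduced representation bisulfite sequencing (RRBS). In RRBS the enzyme MspI cuts at CCGG, so only CpGs near such sites are read, and bisulfite turns unmethylated cytosines into uracil. Chd8+/- samples carry 1 affected copy of Chd8, the gene of a chromatin remodeller, and the comparison asks where methylation differs between the genotypes. The labels give neither the kind of Chd8 allele, the strain, the sex, nor whether each sample is a different animal. A p-value here therefore weighs a difference against the variation among 6 samples, some of which may be technical.

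The members are the CpGs in the interval chr15:89375000-89450000 (mm39) that had at least 10 reads, with both strands added, in at least 2 samples of each genotype. Since the data hold no cytosine with under 10 reads, a strand below that added none. Of 291 CpGs listed there in any library, 83 met this rule, against 864621 of 1603853 on all autosomes. They lay in 24 windows of 500 bp and in 30 clusters whose neighbours were at most 50 bp apart, and CpGs of a cluster share reads. Only 34 of the 83 were covered in all 6 samples, 27 in 5 and 22 in 4, so a mean over several CpGs can rest on different CpGs in different samples. The Chd8+/- samples covered 76, 62 and 70 of them with 2028, 1694 and 2263 reads, and the WT samples covered 71, 75 and 73 with 2715, 2772 and 2500 reads. Over all listed cytosines the summed coverage was 32285980 to 39820333 reads in the Chd8+/- libraries, against 45498222 to 54818138 in the WT libraries, so depth and genotype cannot be told apart. A level is the percent of reads with a cytosine, averaged over all cells of the tissue and both alleles.

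The RefSeq promoter of Shank3 is shown because it sets the scale of the locus: the start used for all distances was read from it. It is on the plus strand of the GRCm38.p6 build at chr15:89499358-89499657 and runs from 250 bases before to 50 after the transcript start. Capitals mark the 9 CpGs that any library listed.
Shank3 promoter: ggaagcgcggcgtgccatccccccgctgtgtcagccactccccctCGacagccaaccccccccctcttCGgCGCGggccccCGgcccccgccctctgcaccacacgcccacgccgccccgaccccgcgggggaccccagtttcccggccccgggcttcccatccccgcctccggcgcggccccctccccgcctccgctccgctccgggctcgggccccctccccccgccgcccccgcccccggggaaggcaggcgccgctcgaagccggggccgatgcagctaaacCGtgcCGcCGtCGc

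These 300 bases hold 40 CpGs, against a median of 7 over the 32851 mouse promoters of the table, of which 3.91% hold as many. They also hold 7 MspI sites (CCGG, which reads the same on both strands), and 52.8% of the promoters hold at least 1. Laid over the interval by the spacing of its CpGs, the sequence had 1 placement at which all 9 listed CpGs under it fell on a CpG of the sequence, and the next best full match rested on 3. That placement is chr15:89383561-89383860 in mm39 and puts the start at 89383811, which is 0 in all distances given here. In the RefSeq gene order Shank3 follows Arsa and the long non-coding RNA C230037L18Rik, and the long non-coding RNA Gm36221 and the gene Acr come after it. Gm15609, another long non-coding RNA, lies within the bounds of Shank3, so a CpG inside the gene can belong to both. Without an annotation of the mm39 build, exons, introns and internal promoters were not placed.

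The 5′ end of Shank3 was almost free of methylation in both genotypes. The 27 members from -602 to 897 bp averaged under 3% in each sample, whereas the other 56, from 3063 to 59481 bp into the gene, averaged over 50%. In the 5′ set the Chd8+/- samples stood at 1.01%, 0.895% and 1.91%, and the WT samples at 1.38%, 2.92% and 0.673%, with 524 to 919 reads per sample. The groups overlap there, and 18 of the 27 CpGs had no methylated read in any sample. The other 56 averaged 60.7%, 62.5% and 55.3% in Chd8+/-, against 61.4%, 55.5% and 52.7% in WT. These 2 sets were formed after the levels had been seen, so their difference is a description. Over all 83 members, 45 had a mean level under 20%, 11 lay between 20% and 80%, and 27 were above 80%. At 20 of them every covered sample was at 0%, and at 5 every covered sample was at 100%. The same classes hold 43.4%, 21.6% and 35.0% of all autosomal CpGs under the same rule, where the shares in the interval are 54.2%, 13.3% and 32.5%.

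**Figure D1:**
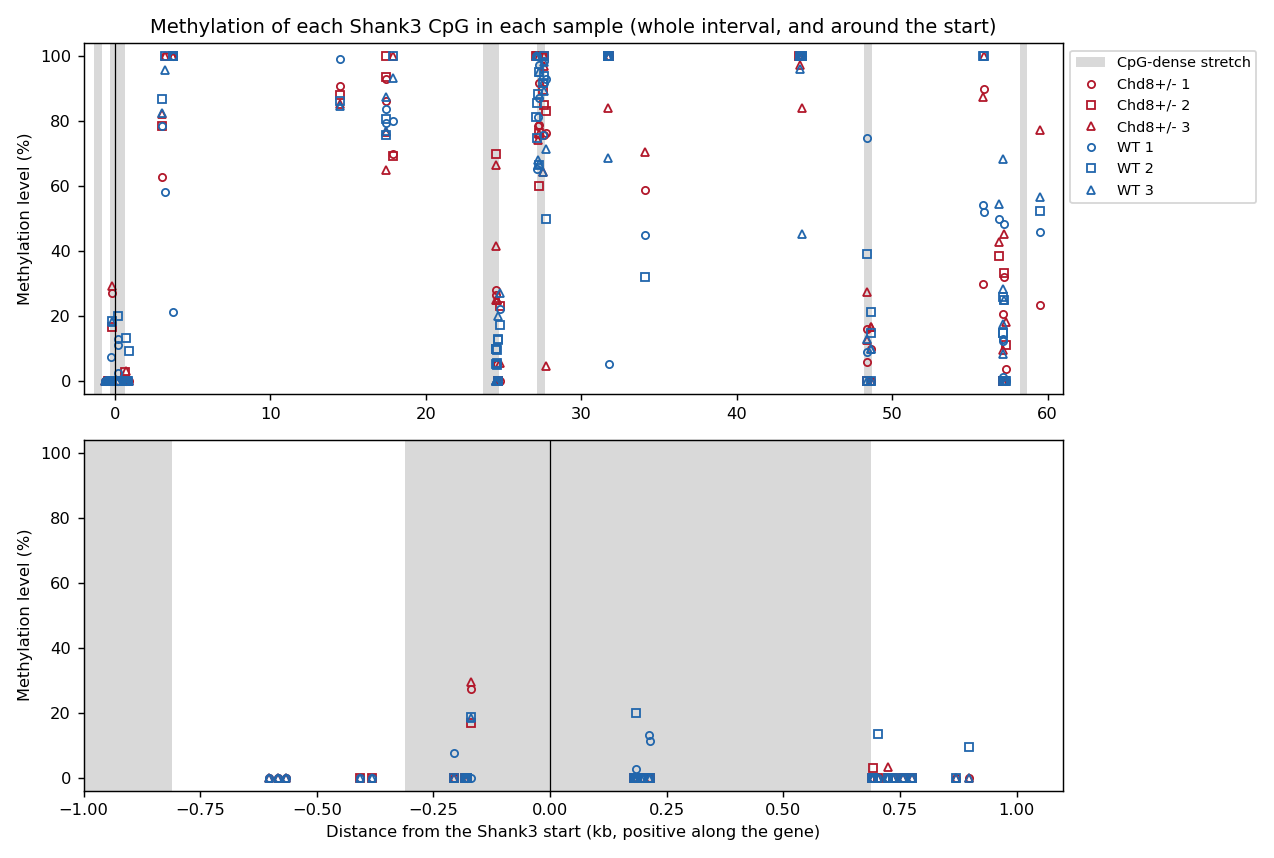
Methylation level in percent of each of the 83 CpGs in each sample (red: 3 Chd8+/- samples, blue: 3 WT samples) against the distance from the Shank3 start in kb, over the whole interval (top) and around the start (bottom); grey bands are CpG-dense stretches. The CpGs around the start lie near 0 in both genotypes, and the band from 27.2 to 27.7 kb lies high.

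Within the promoter, a single CpG stood out from its neighbours. The CpG at -169 bp, the last of the 5 capital CpGs before the start, lies in an MspI site. A cytosine at such a cut can be one filled in during end repair of the fragment, and whether any of these reads were of that kind was not tested. This CpG was read as methylated in 27.3%, 16.7% and 29.3% of 22, 36 and 41 reads in Chd8+/- replicates 1, 2 and 3. In WT replicates 1, 2 and 3 it was methylated in 0%, 18.5% and 18.2% of 52, 27 and 55 reads. WT replicate 1 was thus the only sample without a methylated read, and its 0 of 52 reads allows up to 5.77%, the level that 3 methylated reads would give. The exact (Clopper-Pearson) 95% intervals ran from 10.7% to 50.2%, 6.37% to 32.8% and 16.1% to 45.5% in Chd8+/-, against 6.30% to 38.1% and 9.08% to 30.9% in WT replicates 2 and 3. Such intervals and limits cover counting error only, since reads without molecular identifiers may be copies of 1 molecule. The CpGs at -182, -179 and -177 bp, in the same cluster, had 0 methylated reads in all 6 samples, with 21 to 58 reads each. The first of the cluster, at -205 bp, had methylated reads in WT replicate 1 alone, at 7.55% of 53 reads. Of the 27 members at the 5′ end, 1 exceeded 20% in any sample, and it was this one.

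CpG-dense windows, with at least 10 CpGs listed in any library, numbered 8 in the interval and formed 6 stretches of adjacent windows. Density counts only CpGs read in these libraries, so a dense window is not an annotated CpG island. Members were found in 5 of the 8 windows, in 4 stretches. By the mean over all 6 samples, 4 of these 5 windows were unmethylated (under 20%), 0 were partly methylated (20% to 80%) and 1 was methylated (over 80%). Of the 27983 autosomal dense windows with at least 1 such CpG, 85.5% were unmethylated, 6.03% partly methylated and 8.49% methylated.

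The stretch around the start, the 5′ promoter island at chr15:89383501-89384500, was unmethylated. Its 13 members, of 55 listed CpGs, averaged 2.10%, 1.28% and 5.85% in the Chd8+/- samples, against 2.65%, 3.21% and 1.40% in the WT samples. Chd8+/- replicate 3 was the highest of the 6, on 5 of the 13 CpGs, among them the CpG in the MspI site. The means were 3.08% ± 2.44 in Chd8+/- and 2.42% ± 0.927 in WT (SD, n = 3 each), a difference of 0.658 points, with an exact two-sided permutation p of 0.9 and a Benjamini-Hochberg value of 1.0 over the 4 stretches. Without Chd8+/- replicate 3 the difference was -0.729 points. Over the 5 members covered in all 6 samples, the same 5 that this replicate covered, it was 1.93 points. There the levels were 5.45%, 3.33% and 5.85% in Chd8+/-, against 1.51%, 3.70% and 3.64% in WT. Leaving out that replicate thus also changed the CpGs behind the Chd8+/- mean, and the part of this in the sign was not tested. The listed CpGs of the island that missed the rule averaged 0% to 12.5% in Chd8+/- and 0% to 0.174% in WT, window by window. No exact test of 3 samples against 3 can give a p below 0.1.

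The unmethylated domain ran past the island on both sides. The windows from 0.8 to 0.3 kb before and from 0.7 to 1.2 kb after the start were less dense, with 8 and 9 listed CpGs. Their members stood at 0% in each of the 5 samples that covered the first of these windows, and at 0%, 0.433% and 0.358% in Chd8+/- and 0%, 2.52% and 0% in WT in the second. The dense window from 1.3 to 0.8 kb before the start had no member, but 3, 3 and 10 of its CpGs were listed in the Chd8+/- libraries and 3 in WT replicate 1. All of them were at 0%, with 38, 51 and 145 reads in Chd8+/- and 78 in WT. The next members into the gene, at 3063 and 3243 bp, already stood at 62.9% to 82.4% and at 100% in the Chd8+/- samples that covered them, against 78.6% to 86.8% and 58.3% to 100% in WT.

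The intragenic stretch at chr15:89411001-89411500, 27.2 to 27.7 kb into the gene, was methylated. Its 6 members, all covered in all 6 samples, averaged 87.5%, 85.2% and 85.3% in Chd8+/-, against 88.7%, 89.3% and 80.4% in WT, with 395 to 657 reads per sample. The groups overlap, and the means of 86.0% ± 1.29 in Chd8+/- and 86.2% ± 4.99 in WT (SD, n = 3 each) differed by -0.187 points (exact two-sided permutation p = 1.0, Benjamini-Hochberg 1.0). It had more reads in every sample than the other dense stretches inside the gene. Its members were not alike among themselves. The CpG at 89411437 had 154 to 284 reads per sample and stood at 75.7%, 85.1% and 97.0% in Chd8+/- and at 91.9%, 94.0% and 89.5% in WT. That at 89411390 was between 98.4% and 100% in every sample.

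**Figure D2:**
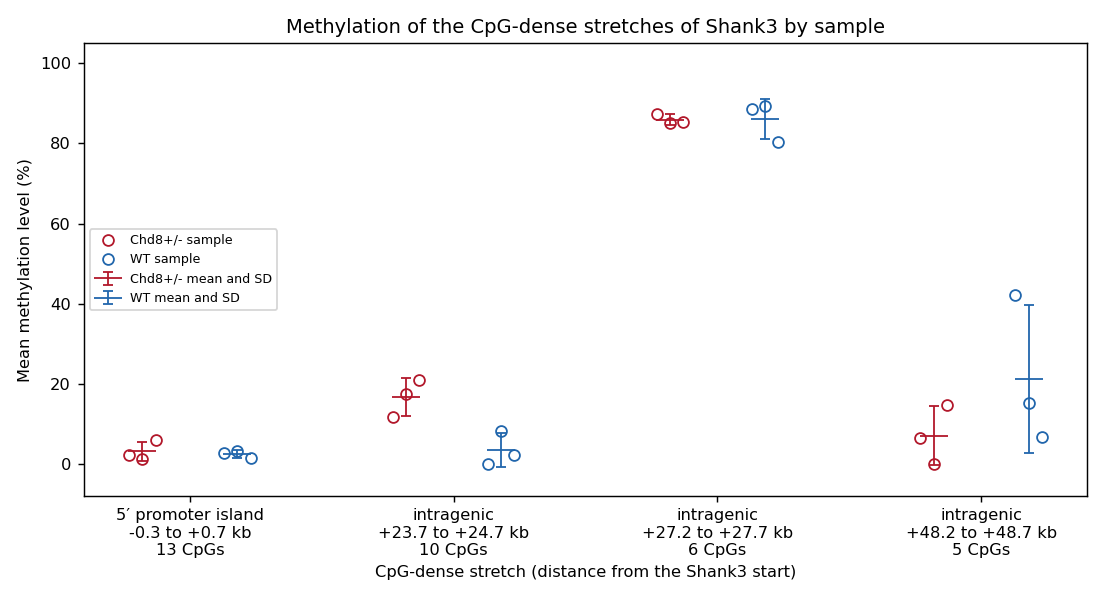
Mean methylation level in percent of the members in each of the 4 CpG-dense stretches that hold any, by sample (circles; red: Chd8+/-, left; blue: WT, right); horizontal bars are means and error bars SD, n = 3 each. The stretch at 27.2 kb lies between 80.4% and 89.3% and the other 3 lie lower; only in the stretch at 23.7 kb are all Chd8+/- samples above all WT samples.

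The stretch at chr15:89407501-89408500, 23.7 to 24.7 kb into the gene, was low in both genotypes. It lists 42 CpGs, of which 10, all in its second window, were members. They averaged 11.6%, 17.5% and 20.8% in Chd8+/-, against 0%, 8.13% and 2.22% in WT. The lowest Chd8+/- sample lay above the highest WT sample, and the difference was 13.2 points between 16.6% ± 4.70 in Chd8+/- and 3.45% ± 4.20 in WT (SD, n = 3 each). The exact two-sided permutation p was 0.1, the smallest possible, with a Benjamini-Hochberg value of 0.4. edgeR gave this window a p of 0.0495, the smallest of the interval, and an adjusted p of 1.0 over 106184 windows.

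The samples did not read the same CpGs of that stretch, and no member of it was covered in all 6. Its 7 members from 24529 to 24577 bp averaged 11.6% and 29.8% in Chd8+/- replicates 1 and 3, against 7.91% and 0% in WT replicates 2 and 3, while Chd8+/- replicate 2 covered 1 of them, at 70% of 10 reads, and WT replicate 1 none. Its other 3 members, from 24664 to 24673 bp, were at 0% in Chd8+/- replicates 2 and 3, against 0%, 8.66% and 10% in the WT samples. The direction thus differs between the 2 clusters, and the part of this in the result was not tested. In Chd8+/- replicate 1, 5 adjacent CpGs of the first cluster each had 5.26% of 19 reads, which is 1 read. Beyond the rule, the first window of the stretch listed 9 and 17 CpGs in WT replicates 1 and 2 alone, at means of 1.71% and 6.06%. In its second window, CpGs that missed the rule averaged 19.7% over 4 CpGs in Chd8+/- replicate 1, against 0% over 6 in WT replicate 1 and 12.1% over 11 in WT replicate 2. The next member, at 24750 bp and just past the stretch, stood at 0%, 23.1% and 5.56% in Chd8+/-, against 22.2%, 17.5% and 27.3% in WT, and there the genotypes overlap.

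The stretch at chr15:89432001-89432500, 48.2 to 48.7 kb into the gene, was low and uneven. Its 5 members, of 24 listed, averaged 6.40%, 0% and 14.7% in Chd8+/-, against 42.0%, 15.1% and 6.61% in WT. WT replicate 1 was far above the rest, on 2 CpGs and 23 reads. The 0% of Chd8+/- replicate 2 rests on the same 2 CpGs, with 44 reads. Only these 2 members were covered in all 6 samples. The groups overlap. The means of 7.04% ± 7.39 in Chd8+/- and 21.3% ± 18.5 in WT (SD, n = 3 each) differed by -14.2 points, with an exact two-sided permutation p of 0.2 and a Benjamini-Hochberg value of 0.4. Without WT replicate 1 the difference was -3.81 points. At 89432174, the CpG that sets WT replicate 1 apart, the levels were 16.1%, 0% and 12.8% in Chd8+/- and 75.0%, 39.3% and 13.0% in WT, with 12 reads in WT replicate 1. The 3 to 10 CpGs per library that missed the rule averaged 6.67%, 17.2% and 34.5% in Chd8+/-, against 14.7%, 22.8% and 1.67% in WT, with overlap between the genotypes.

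Towards the 3′ end the gene held CpGs of intermediate level. The window at chr15:89440501-89441000, 56.7 kb into the gene, had 6 members and averaged 26.4%, 12.0% and 16.3% in Chd8+/-, against 20.9%, 16.1% and 33.8% in WT. Chd8+/- replicate 1 covered only 2 of the 6 members, with 49 reads, and WT replicate 2 covered 5. The 26.4% thus leaves out the CpGs at 89440927, 89440929 and 89440938, which were at 0% in Chd8+/- replicates 2 and 3. The groups overlap, and edgeR gave a p of 0.667 and an adjusted p of 1.0. The window after it, with 2 members, stood at 1.92%, 5.56% and 9.09% in Chd8+/- and at 0% in both WT samples that covered it. The dense window at 58.2 to 58.7 kb had no member, since 1 Chd8+/- library listed CpGs there, 4 at 0% with 40 reads. In WT replicates 1, 2 and 3 its 17, 6 and 6 listed CpGs averaged 24.6%, 16.6% and 35.2%, and single CpGs reached 83.3%. With a lone Chd8+/- library this window allows no comparison.

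**Figure D3:**
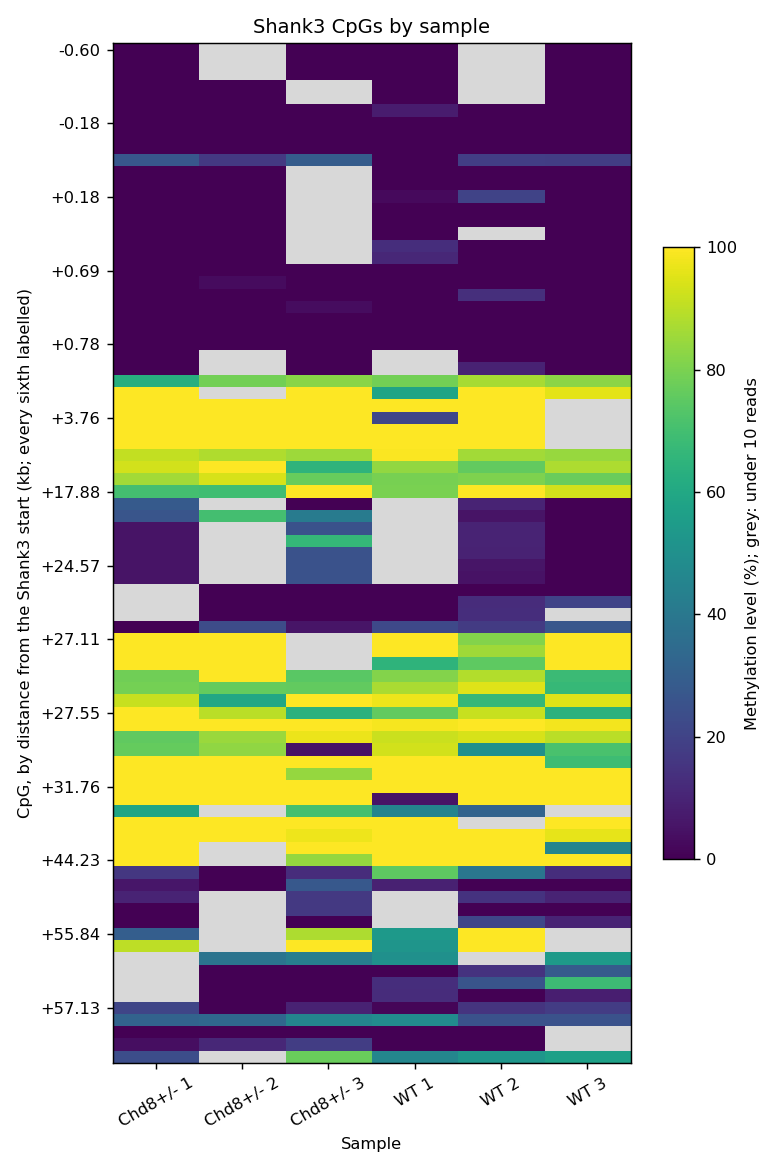
Methylation level in percent (colour) of the 83 CpGs in order of distance from the Shank3 start (rows, kb) in the 3 Chd8+/- and 3 WT samples (columns). Grey marks CpGs with under 10 reads on each strand. The dark block at the top is the 5′ end, with a row at -169 bp of 16.7% to 29.3% in the Chd8+/- samples and of 0%, 18.5% and 18.2% in the WT samples, and the grey cells show that the samples covered different CpGs.

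Of the 19 less dense windows with members, outside the dense stretches, 9 were methylated, 6 partly methylated and 4 unmethylated, where 52.4%, 34.5% and 13.1% of 248018 such windows on all autosomes fell in these classes. The highest was the window at 43.7 kb, at 100%, 100% and 98.7% in Chd8+/- and 100%, 100% and 98.1% in WT. At 34078 bp, a partly methylated member alone in its window, the level was 58.8% and 70.6% in Chd8+/- replicates 1 and 3, against 45.2% and 32.0% in WT replicates 1 and 2. With 2 samples each, edgeR gave this CpG an unadjusted p of 0.528. The spread between samples, as the SD pooled over the genotypes, had a median of 18.0 points in the 6 partly methylated windows, against 14.2 points over all 87246 partly methylated windows of the autosomes. In the 4 unmethylated dense windows the median was 3.47 points, against 0.643 points over all 23919 of that kind. In the 4 unmethylated windows that were less dense it was 1.79 points, against 3.996 points over all 32422 of that kind, and the methylated dense window had 3.64 points, against a median of 3.96 over all 2376.

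The 3 windows with the widest spread held 1 or 2 members each. At 27.7 kb, the CpG at 89411523 stood at 76.4%, 83.3% and 4.76% in Chd8+/- and at 93.0%, 50% and 71.4% in WT. Chd8+/- replicate 3, with 1 methylated read of 21, was far below all others, and its exact 95% interval of 0.120% to 23.8% lay below those of the other 5 samples. Without it the difference was 8.38 points in place of -16.7. At 55.7 kb the 2 members averaged 60% and 93.8% in Chd8+/- replicates 1 and 3, against 53.2% and 100% in WT replicates 1 and 2. At 59.2 kb the single member stood at 23.5% and 77.3% in Chd8+/- replicates 1 and 3, with 17 and 22 reads, against 45.9%, 52.4% and 56.7% in WT. The genotypes overlap in all 3 windows.

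No window or CpG of Shank3 differed between Chd8+/- and WT by the test. With the quasi-likelihood test of edgeR, fitted to all autosomal features, 0 of 11 windows with at least 3 members and 0 of 58 members with both methylated and unmethylated reads had an adjusted p under 0.05, and so had 0.0% of the 106184 windows and 0.0% of the 609673 CpGs tested. At an unadjusted p under 0.05 stood 1 of the 11 windows and 1 of the 58 CpGs, against 3.4% of all windows and 3.02% of all CpGs. Beside the window at 24.2 kb, the 4 dense windows with members had edgeR p-values of 0.391, 0.236, 0.488 and 0.374, from 5′ to 3′, each with an adjusted p of 1.0. limma on log ratios also called 0 and 0, with 1 window and 3 CpGs at an unadjusted p under 0.05, against 5.19% and 5.11% of all. Of the 14 windows covered in all 6 samples, the Chd8+/- samples were all above WT in 1, the window at 24.2 kb, and all below in 0. Of the 208872 autosomal windows covered in all 6 samples, 5.19% were all above and 3.59% all below. Among the 34 members covered in all 6 samples there were 0 in either direction, against 3.48% and 2.32% of the 534921 autosomal CpGs so covered.

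Differences in Shank3 had no common direction. The mean was higher in Chd8+/- in 12 windows, lower in 11 and equal in 1, with a median difference of 0.101 points, where 50.8% of all 276001 autosomal windows were higher and 45.0% lower, with a median of 0.0911 points. Among the 83 CpGs, 31 were higher, 27 lower and 25 equal. The level averaged over the members was 39.5%, 40.6% and 42.3% in Chd8+/-, against 40.3%, 40.8% and 33.5% in WT. The means of 40.8% ± 1.42 and 38.2% ± 4.08 (SD, n = 3 each) differed by 2.65 points, less than the SD of the WT samples (exact two-sided permutation p = 0.5). Over the 34 CpGs covered in all samples the levels were 47.2%, 47.1% and 45.3% in Chd8+/- and 47.5%, 48.4% and 45.5% in WT, a difference of -0.560 points (exact permutation p = 0.5), so the sign turned when each sample was read at the same CpGs.

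**Figure D4:**
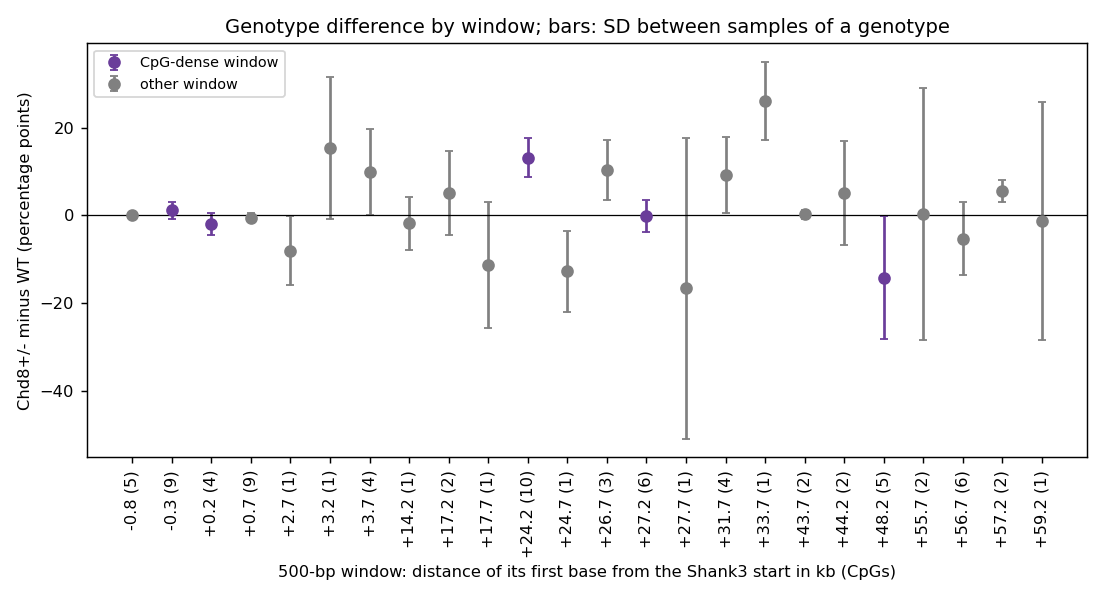
Difference of the mean level, Chd8+/- minus WT, in percentage points for the 24 windows with members, in order of distance from the Shank3 start (kb; number of members in brackets); bars show the SD between samples pooled over the genotypes, and purple marks CpG-dense windows. The windows scatter on both sides of 0, and the longest bars, 34.3, 28.9 and 27.1 points, are at 27.7, 55.7 and 59.2 kb in windows with 1 or 2 members.

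The 5 CpGs with the smallest edgeR p lay in 3 clusters inside the gene. At 89440929, 57118 bp into the gene, the level was 0% of 32 and 21 reads in Chd8+/- replicates 2 and 3, against 13.0%, 25.9% and 68.6% of 46, 27 and 35 reads in WT. The 0 of 32 and 0 of 21 reads in Chd8+/- allow, by the same limit of 3 reads, up to 9.38% and 14.3%. The first is below and the second above the lowest WT level. edgeR gave an unadjusted p of 0.0274 and an adjusted p of 1.0 with 2 against 3 samples. Its neighbours at 89440927 and 89440938, on the same reads, were at 0% in the same Chd8+/- samples, against 0%, 14.8% and 28.6% and 12.5%, 0% and 8.33% in WT. In the same cluster, 89440945 stood at 20.8%, 0% and 9.62% in Chd8+/-, against 1.30%, 14.9% and 17.8% in WT. The CpG at 89440981 stood at 32.0%, 33.3% and 45.5% in Chd8+/-, against 48.4%, 25.0% and 25.0% in WT. The genotypes overlap at both. At 89408344, in the stretch at 23.7 kb, the level was 26.5%, 70% and 41.7% of 34, 10 and 12 reads in Chd8+/-, against 5.26% and 0% of 19 and 11 reads in WT replicates 2 and 3 (edgeR adjusted p = 1.0).

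At the remaining CpG, 89387570, every sample that covered it but 1 was fully methylated. It stood at 100% of 10, 17 and 30 reads in Chd8+/-, against 21.4% of 14 and 100% of 46 reads in WT replicates 1 and 2 (edgeR adjusted p = 1.0). The other 3 CpGs of its cluster were at 100% in WT replicate 1 too. The cluster had no cytosine with 10 reads in WT replicate 3, and without WT replicate 1 the difference at 89387570 was 0. The difference of 9.82 points in its window, between 100% in Chd8+/- and 90.2% ± 13.9 (SD, n = 2) in WT, rests on that CpG of that sample. This window and the 1 at 26.7 kb had the smallest edgeR p-values after the window at 24.2 kb, at 0.162 and 0.176, each with an adjusted p of 1.0. The 3 members at 26.7 kb averaged 100% in Chd8+/- replicates 1 and 2, against 88.4%, 80.7% and 100% in WT.

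Replicate 3 of each genotype differed from the other libraries in the share of reads on chromosome X, at 2.56% in Chd8+/- and 2.58% in WT, against 1.18% to 1.21%. Among the 4 libraries with the lower share, the interval mean differed by -0.450 points and the 4 stretches, from 5′ to 3′, by -1.24, 10.5, -2.71 and -25.4 points (n = 2 each, Chd8+/- minus WT). Between the replicate 3 libraries the differences were 8.86 points for the interval and 4.46, 18.6, 4.86 and 8.12 points for the stretches, with no replicate.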

How the data were processed

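RRBS was run on 6 neocortex samples. Per the submitters' processing notes, the tools included Bismark 0.20.0, Trim Galore 0.4.4 and SAMtools 1.9, and the build was mm39; settings and deduplication are not given in the sources used here. Coverage is deposited as a read count per cytosine and strand, and the share read as cytosine as percent, per the file headers; no cytosine has under 10 reads. Coverage times percent was whole within 0.02 for 99.96% to 99.97% of cytosines per library and was rounded. Bisulfite does not separate methyl- from hydroxymethylcytosine.

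The strands of each CpG were merged. Windows of 500 bp were counted from the chromosome start. The level of a window, stretch or interval was the unweighted mean over its members covered in that sample, compared by exact permutation tests. Methylated and unmethylated reads of all autosomal windows with at least 3 CpGs, and of CpGs not at 0% or 100% throughout, were tested with edgeR 4.0.16 in R 4.3.3 (quasi-likelihood, coverage term per sample, common dispersion from at most 100000 features, Benjamini-Hochberg over all). limma 3.58.1 used log2 of methylated plus 1 over unmethylated plus 1 reads. The rest was computed with scipy 1.17.1, pandas 2.3.3 and numpy 2.4.6 in Python 3.11.15 and drawn with matplotlib 3.10.9.

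Named were Shank3, its dense windows and stretches, the 3 windows and 5 CpGs with the smallest p and the 3 windows with the largest SD; CpGs beyond this were chosen after their values were seen. The members and these rules were chosen with earlier results of these data known. The planned list of other postsynaptic genes was not analysed here, since the gene table follows GRCm38.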

Additional observations from a re-analysis of the deposited data

How the results depend on the processing

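Counts of called windows and CpGs stayed at 0 under all alternatives run. The count of called stretches was 0 too, but the exact test cannot go below a p of 0.1, so it could call none under any of them. Of the values of the main comparisons under their alternatives, 8 reversed, 1 moved by more than the spread or 1.5 times, and 90 did neither, many of them counts of 0. Of those of named windows and CpGs, 10 reversed and 117 did not. Some of the 117 are differences of exactly 0 or without a p. In others the sample left out had no reads at the feature, so the difference could not change. The interval difference of 2.65 points reversed to -1.53 points at a minimum of 20 reads, to -0.560 over CpGs covered in all samples and to -1.10 weighted by reads, and ranged from 0.301 to 3.96 over left-out samples. Over left-out samples the stretch differences, from 5′ to 3′, ranged from -0.729 to 1.56, 11.1 to 15.7, -3.06 to 1.41 and -21.5 to -3.81 points. Those of the windows at 89383501, 89411001, 89411501, 89439501 and 89443001 ranged from -0.0359 to 2.00, -3.06 to 1.41, -30.9 to 8.38, -23.1 to 23.7 and -28.1 to 25.6 points. The stretch at 48.2 kb differed by -2.69 points at 20 reads. With partly methylated set as 10% to 90%, 3 dense windows were in that class in place of 0. The causes were not tested. The stretch at 23.7 kb has no CpG covered in all samples and none at 20 reads in 2 samples per genotype, so these alternatives give no value there.

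A replicate block left edgeR with 0 called windows and 0 called CpGs. In exact tests over the 3 pairs, which cannot go below a p of 0.25, the interval difference of 2.65 points gave 1.0, that of the stretch at 23.7 kb 0.25 and that of the stretch at 48.2 kb 0.5. Deviations of same-numbered samples from their genotype mean correlated at 0.00456, 0.000833 and 0.00233 over 534921 CpGs, so the numbers were not taken as pairs, although both samples numbered 3 have the higher share of reads on chromosome X.

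Depth limits these values: the median member had 25 reads where it was covered, and 22 members were covered in only 4 samples.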

Other observations

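Single CpGs stood at 21.4% and 5.26% in WT replicate 1 at 2 places in Shank3 where the other CpGs of the cluster were at 100% in that sample. Besides the CpG at 89387570, that at 89415578, 31.8 kb into the gene, stood at 100% in all 3 Chd8+/- samples (16, 13 and 18 reads), against 5.26% of 19 reads in WT replicate 1 and 100% in WT replicates 2 and 3 (12 and 16 reads). The CpG at 89415578 was chosen after its values were seen. The exact 95% interval of 0.133% to 26.0% in WT replicate 1 lay below those of the other samples. Of the other 3 CpGs of that cluster, 1 stood at 84.2% in Chd8+/- replicate 3 and 1 at 68.8% in WT replicate 3. Lone lower CpGs beside others at 100% in the same sample also occurred in other clusters. The CpG at 89410965 stood at 65.2% in WT replicate 1. That at 89428009 stood at 45.5% in WT replicate 3, and that at 89428040 at 84.2% in Chd8+/- replicate 3. These were also chosen after their values were seen.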
